A study of Arabidopsis thaliana with 6 samples.

Results

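The ZAT and AZF genes encode small zinc finger proteins of Arabidopsis that respond to stress. The group holds 10 loci chosen by gene identifier, namely ZAT5 (AT2G28200), ZAT6 (AT5G04340), ZAT7 (AT3G46090), ZAT8 (AT3G46080), ZAT10 (AT1G27730), ZAT11 (AT2G37430), ZAT12 (AT5G59820), AZF1 (AT5G67450), AZF2 (AT3G19580) and AZF3 (AT5G43170), and all 10 were found among the 24379 genes of the deposited table. The table and RefSeq list ZAT5 and ZAT8 by their loci only, and give ZAT10 as STZ and ZAT12 as RHL41. RNA was sequenced from roots of 7-day-old wild type (Col-0) seedlings grown hydroponically in 2% modified MGRL, in 3 samples after aluminum (Al) treatment and 3 control samples without it. The treatment was 25 μM AlCl3 for 3 h, and the sampled tissue was about 0.5 cm of the root measured from the tip, both as given by the study and not by the labels. All seedlings were of the same genotype, and nothing states whether the 3 samples of a group came from separate cultures, so that the p-values measure the spread between these samples, which may be technical.

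Proteins of this kind carry a pair of C2H2 zinc fingers, in which 2 cysteines and 2 histidines hold a zinc ion, and bind DNA through a plant-specific helix with the core QALGGH. Most of them also carry an EAR motif, a short leucine-rich stretch near the end of the protein that recruits co-repressors of the TOPLESS family, and many act as repressors of transcription. They are known as fast responders to salt, cold, drought, high light, wounding and reactive oxygen species. ZAT10 and ZAT12 are standard markers of such responses.

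In the coding sequences of RefSeq TAIR10.1, each of the 10 members had 2 fingers with the QALGGH core. The residue that follows the core in the first finger divided the members into 2 classes. It was arginine in ZAT5, ZAT7, ZAT8, ZAT11 and ZAT12, whose second finger had methionine at this place, and lysine in ZAT6, ZAT10, AZF1, AZF2 and AZF3, whose second finger had lysine too. The first fingers of 5 members are shown to let the classes be compared, with the bases that encode the core in capitals. The coding strand is printed, from chr1:9648680-9648742 (minus strand) for ZAT10, chr5:24103193-24103255 (plus strand) for ZAT12, chr3:16923071-16923133 (minus strand) for ZAT8, chr3:16926625-16926687 (minus strand) for ZAT7 and chr2:12024669-12024731 (plus strand) for ZAT5.
ZAT10: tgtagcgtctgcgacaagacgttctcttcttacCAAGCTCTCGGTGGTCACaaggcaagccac
ZAT12: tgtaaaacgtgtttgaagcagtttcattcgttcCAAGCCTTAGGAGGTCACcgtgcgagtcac
ZAT8: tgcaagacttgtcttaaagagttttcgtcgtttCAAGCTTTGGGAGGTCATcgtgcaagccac
ZAT7: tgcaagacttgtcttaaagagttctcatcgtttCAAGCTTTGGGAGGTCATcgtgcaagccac
ZAT5: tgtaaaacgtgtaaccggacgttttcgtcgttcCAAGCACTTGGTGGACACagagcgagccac

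The triplet after the capitals is aag in ZAT10, a lysine codon, and cgt or aga in the other 4 genes, which encode arginine. Over whole proteins, pairs within the lysine class shared 44.1% to 73.6% of the residues of the shorter protein (10 pairs), and pairs within the arginine class shared 38.1% to 90.2% (10 pairs). The 25 pairs that join the classes shared 30.4% to 38.8%. ZAT7 and ZAT8 were the closest pair, with 148 identical residues of 164, followed by ZAT6 and ZAT10 with 73.6%. The DLN core of the EAR motif was found in 7 proteins, between 14 and 50 residues from the end. ZAT7, ZAT8 and ZAT12 had no DLN, whereas the looser pattern of 3 leucines at every other position was found in ZAT7 and ZAT12 and not in ZAT8.

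**Figure D1:**
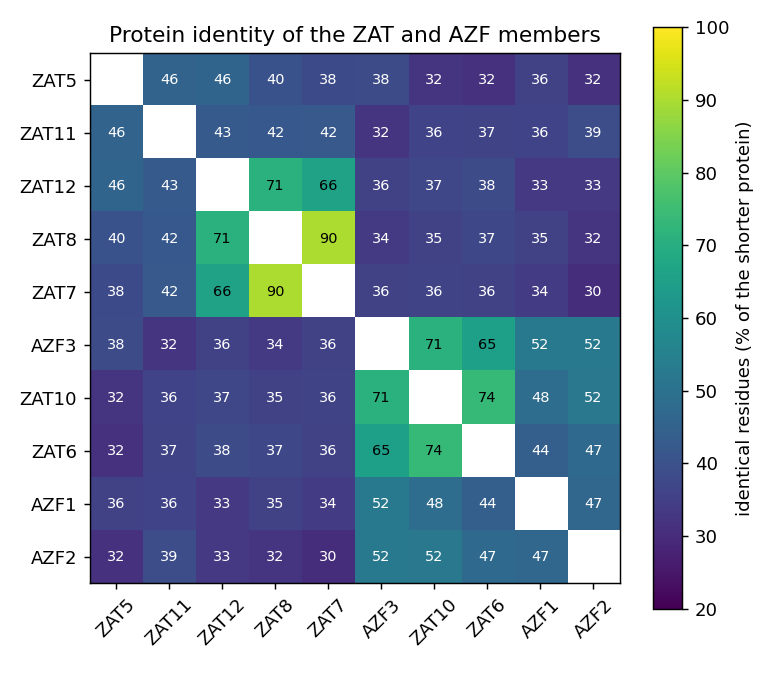
Protein identity between each pair of ZAT and AZF members, in percent of the residues of the shorter protein, from global alignments of translated RefSeq coding sequences. The arginine class (ZAT5 to ZAT7 on the axes) and the lysine class (AZF3 to AZF2) form 2 blocks, and ZAT7 with ZAT8 is the closest pair at 90.2%.

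ZAT7 and ZAT8 lie near another related gene, AT3G46070, on the minus strand of chromosome 3, with 1 other annotated gene within the stretch that the 3 genes span. ZAT8 covers chr3:16922514-16923299 and ZAT7 chr3:16925881-16926883, with a gap of 2581 bases, and AT3G46070 covers chr3:16920445-16920957. No stretch of 50 bases of the 10 members' transcripts occurred in an annotated transcript of another gene, so reads of that length could separate even ZAT7 from ZAT8. The longest transcript of each member has 1 exon. AZF3 is the only member overlapped by another annotated gene, AT5G43160 on the opposite strand, which covers 58.1% of its length, and the AZF3 values are uncertain where the counting ignored strand.

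Depth was similar in all samples, with an estimated 21650000 to 21900000 fragments per sample, and FPKM sums between 647540 and 688427. Levels are in FPKM, that is, fragments scaled by transcript length and by the mapped fragments of the sample, so that levels can be compared between genes. The test was limma, fitted to log2(FPKM + 1) values of the 18463 genes that reached an FPKM of 1 in at least 3 samples, with Benjamini-Hochberg adjustment, and called at an adjusted p below 0.05. Over all tested genes the median change was -0.13 on the log2 scale and moved to -0.0024 under median-ratio scaling. Among markers of the tissue, the light-harvesting genes LHCB1.1 and LHCB2.1 were at 0.25 FPKM or less in every sample. RBCS1A and PSBR, also of the green shoot list, were at 4.51 to 8.90 and at 118.8 to 159.7. Of the 6 root tip markers, 5 were tested. PLT1, SMB and PIN2 were lower after Al treatment, while SHR (0.099) and SCR (-0.12) did not pass the test. Both root hair markers, EXPA7 and COBL9, were lower. The summed FPKM of the 6 root tip markers was 94.6 to 102.0 in the control and 79.7 to 81.4 after Al, and that of the root hair markers 23.1 to 28.3 and 6.77 to 8.63. The part of these shifts in the results was not tested, and in bulk samples fewer cells of a type and less RNA per cell cannot be told apart.

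The comparison of Al-treated with control roots asks how transcript levels respond to Al. Of the 10 members, 9 rose and 1, ZAT5, fell. Over all tested genes 21.3% were called higher, 38.5% lower and 59.8% in either direction. ZAT10, ZAT12, ZAT8, ZAT11, ZAT7 and ZAT6 rose by at least 1 on the log2 scale, a rise that 6.45% of all tested genes reached, and AZF2, AZF3 and AZF1 rose by less. The median log2 fold change of the 10 members was 1.97. ZAT7 and ZAT8 passed the filter on low values only through the Al samples and so had to differ. Of the other 8 members, which were at an FPKM of 1 or more in all 6 samples, 7 rose, with a median of 1.37. In these 7 members, the lowest Al sample exceeded the highest control sample, as in 23.3% of all tested genes. The same held for ZAT7 and ZAT8, where the filter had fixed it. An exact two-sided permutation test of 3 samples against 3 gives no p below 0.1, and it gave 0.1 for each of the 10 members.

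**Figure D2:**
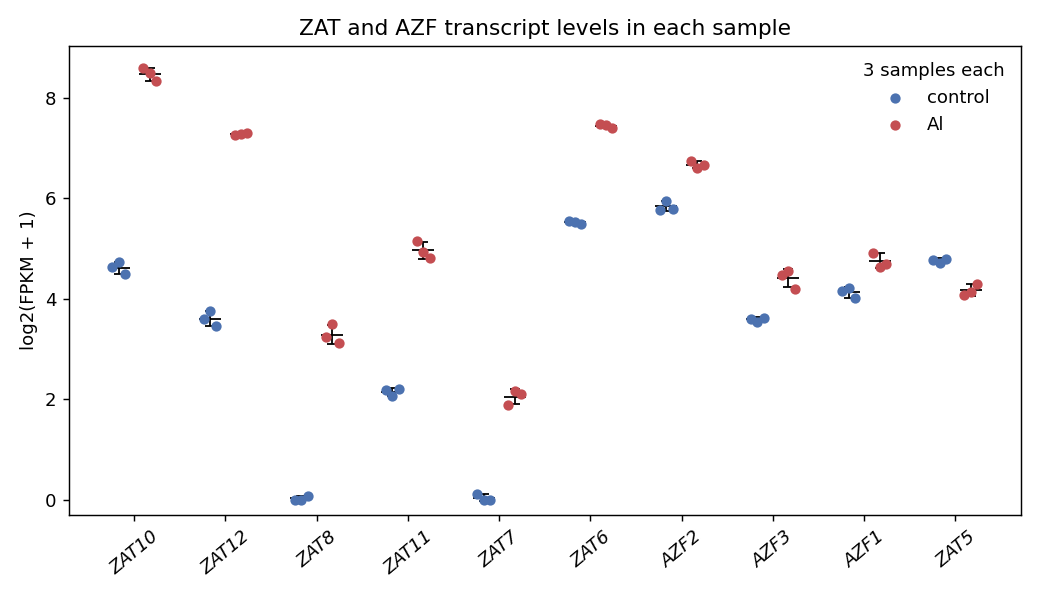
Level of each ZAT and AZF gene as log2(FPKM + 1), with a point for each of the 3 control and 3 Al samples and the mean ± SD of these points. The groups do not overlap in any member, and ZAT5 is the only member with the Al samples below the control.

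ZAT10 (chr1:9648021-9649323, minus strand), a repressor first known for conferring salt tolerance, had an FPKM of 23.66, 25.61 and 21.38 in the control samples and of 384.65, 356.86 and 320.76 after Al treatment. The lowest Al sample was thus far above the highest control sample. Its mean was 23.6 ± 2.12 without Al and 354.1 ± 32.0 with Al (SD, n = 3 each), 15.0 times higher. On the log2 scale it rose by 3.85 ± 0.088 (SE), with an adjusted p of 4.47e-09 in limma. Ordered from the largest rise to the largest fall, ZAT10 ranked 77 among the 18463 tested genes.

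ZAT12 (chr5:24102814-24103794, plus strand), which takes part in the responses to high light and reactive oxygen species, was at 11.17, 12.54 and 9.96 FPKM in the control and at 152.70, 154.52 and 157.53 after Al. Its Al samples lay close together, with a mean of 154.9 ± 2.44 (SD, n = 3) against 11.2 ± 1.29 (SD, n = 3). The ratio of the means was 13.8 and the change on the log2 scale 3.68 ± 0.081 (SE; adjusted p = 4.47e-09, limma). The interval of this change, 3.50 to 3.86, overlapped that of ZAT10, 3.66 to 4.05.

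ZAT6 (chr5:1216058-1217362, minus strand) has been linked to phosphate homeostasis and cadmium tolerance and is a substrate of the kinase MPK6. It was at 45.88, 45.25 and 43.74 FPKM in the control samples and at 177.13, 174.61 and 167.13 after Al. Its spread was small in both groups, and its mean was 3.85 times higher after Al. This is a rise of 1.92 ± 0.058 (SE) in log2 units (adjusted p = 1.62e-08, limma).

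ZAT11 (chr2:15706285-15707224, plus strand), known from the response to nickel, was low in the control at 3.54, 3.18 and 3.61 FPKM and reached 34.48, 29.70 and 26.94 after Al. The rise was 8.82 times on the FPKM scale and 2.81 on the log2 scale (standard error 0.10; limma adjusted p = 4.53e-08).

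ZAT7 and ZAT8 were at or near 0 without Al. ZAT8 was listed at 0 in control replicates 1 and 2 and at 0.06 FPKM in control replicate 3, and after Al it was at 8.42, 10.26 and 7.73. ZAT7, linked to salt tolerance through its EAR motif, was at 0.09 FPKM in control replicate 1, was listed at 0 in the other 2, and was at 2.70, 3.51 and 3.28 after Al. From the estimated depths, these control values correspond to about 1 fragment for ZAT8 and 2 for ZAT7 over 3 samples, against about 430 and 200 fragments after Al. The ratio was 430 for ZAT8, with an exact 95% interval of 76.8 to 17023, and 100 for ZAT7, with an interval of 27.3 to 831, which cover counting error only. Their log2 fold changes of 3.26 (standard error 0.12) and 2.01 (standard error 0.12, limma adjusted p = 5.07e-08 and 1.10e-06) depend on the pseudocount and rose to 6.24 and 4.71 when 0.1 was added in place of 1. AT3G46070, the related gene near them, whose protein shares 114 residues with ZAT8, or 69.5% of the shorter ZAT8 protein, was listed at 0 in 5 samples and at 0.10 FPKM in Al replicate 1.

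The AZF genes had the smallest rises. AZF2 (chr3:6802903-6804296, minus strand), known as a repressor of auxin-responsive and abscisic acid-repressed genes under osmotic stress, was the most abundant member without Al, at 53.81, 60.99 and 54.52 FPKM, and was at 105.98, 95.74 and 100.13 after Al. The samples did not overlap, and the rise was 0.82 ± 0.071 (SE) in log2 units (adjusted p = 1.41e-05, limma). AZF3 (chr5:17330945-17331646, minus strand) rose from 11.17, 10.70 and 11.34 FPKM to 21.31, 22.49 and 17.42, by 0.82 ± 0.097 (SE; adjusted p = 0.000105, limma). Its antisense partner AT5G43160 was far lower, at 1.79 ± 0.078 FPKM in the control and 0.897 ± 0.058 after Al (SD, n = 3 each), and moved in the other direction. AZF1 (chr5:26918765-26920179, minus strand), which acts with AZF2, was at 16.90, 17.58 and 15.11 FPKM in the control and at 29.30, 23.95 and 25.03 after Al, and rose by 0.63 ± 0.092 (SE; adjusted p = 0.000390, limma).

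ZAT5 (chr2:12023940-12025370, plus strand) was the exception. It was at 26.44, 25.25 and 26.72 FPKM in the control and at 15.81, 16.52 and 18.74 after Al, and every Al sample was below every control sample, as in 42.9% of all tested genes. Without Al its mean was 26.1 ± 0.781 and with Al 17.0 ± 1.53 (SD, n = 3 each). In log2 units it fell by 0.59 (standard error 0.078, limma adjusted p = 0.000192). Under median-ratio scaling, which moved the median of all genes near 0, the change was -0.46 and still passed the test. ZAT5 and the strongly risen ZAT7, ZAT8, ZAT11 and ZAT12 all belong to the arginine class, and the lysine class held 5 genes that rose.

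**Figure D3:**
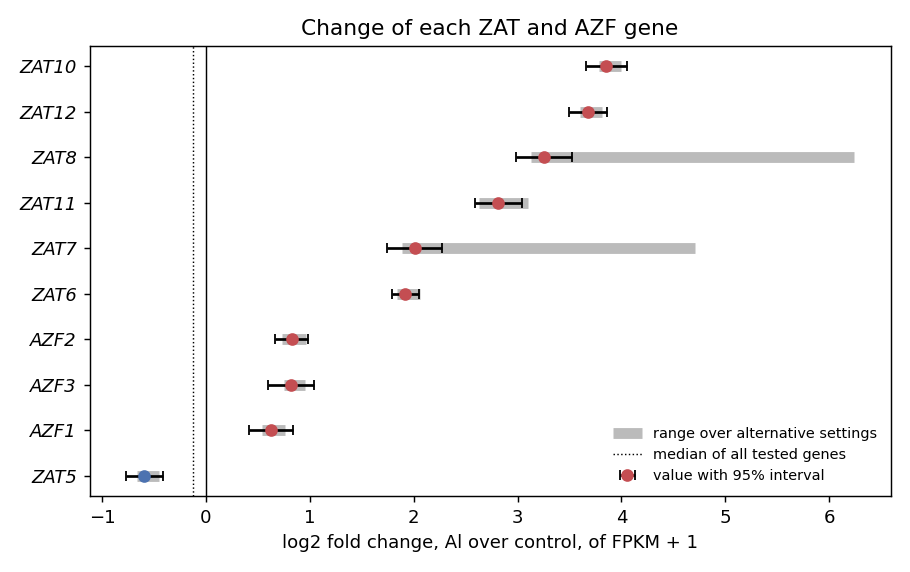
Log2 fold change of each member on the FPKM + 1 scale, Al over control, with the 95% interval of the limma fit (bars) and the range over the alternative settings (grey). ZAT10 and ZAT12 changed most at 3.85 and 3.68, ZAT5 lies at -0.59, and the long grey bars of ZAT7 and ZAT8 end at the values with a pseudocount of 0.1.

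The order of the levels differed between the conditions. Without Al it was AZF2, ZAT6, ZAT5, ZAT10, AZF1, ZAT12, AZF3, ZAT11, ZAT7 and ZAT8, with mean FPKM values from 56.4 to 0.020. The ranges of ZAT5 and ZAT10 overlapped, as did those of ZAT12 and AZF3 and those of ZAT7 and ZAT8. After Al the order was ZAT10, ZAT6, ZAT12, AZF2, ZAT11, AZF1, AZF3, ZAT5, ZAT8 and ZAT7, from 354.1 to 3.16. Here the ranges of ZAT11 and AZF1 overlapped, as did those of AZF3 and ZAT5. The FPKM values of all members summed to 186.4 to 201.1 in the control samples and to 844.7 to 932.5 in the Al samples. ZAT10 made up 11.5% to 12.7% of this sum without Al and 38.0% to 41.3% with it.

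The promoters of 5 members, taken as the 250 bases before and 50 bases after the annotated transcript start, are shown for ZAT10, ZAT12 and ZAT8, which had the largest rises on the log2 scale, for ZAT7, whose promoter resembles that of ZAT8, and for ZAT5, the member that fell. Capitals mark matches on either strand of the W-box (TTGACC or TTGACT), which WRKY factors bind, the G-box (CACGTG) and the core of the CAMTA site (CGCG), at which calmodulin-binding transcription activators bind. The sequences are from RefSeq TAIR10.1, on the strand of the gene, chr1:9649274-9649573 for ZAT10, chr5:24102564-24102863 for ZAT12, chr3:16923250-16923549 for ZAT8, chr3:16926834-16927133 for ZAT7 and chr2:12023690-12023989 for ZAT5.
ZAT10: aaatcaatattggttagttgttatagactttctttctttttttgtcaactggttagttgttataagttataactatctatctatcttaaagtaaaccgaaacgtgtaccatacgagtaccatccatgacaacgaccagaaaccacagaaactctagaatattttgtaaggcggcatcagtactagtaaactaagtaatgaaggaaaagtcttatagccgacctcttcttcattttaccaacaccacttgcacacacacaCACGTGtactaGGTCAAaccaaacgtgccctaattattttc
ZAT12: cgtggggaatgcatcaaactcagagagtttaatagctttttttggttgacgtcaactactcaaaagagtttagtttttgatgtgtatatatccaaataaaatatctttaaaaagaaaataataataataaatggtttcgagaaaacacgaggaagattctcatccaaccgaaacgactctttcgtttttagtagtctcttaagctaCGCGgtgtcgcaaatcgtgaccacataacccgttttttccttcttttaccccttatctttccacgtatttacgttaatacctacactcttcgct
ZAT8: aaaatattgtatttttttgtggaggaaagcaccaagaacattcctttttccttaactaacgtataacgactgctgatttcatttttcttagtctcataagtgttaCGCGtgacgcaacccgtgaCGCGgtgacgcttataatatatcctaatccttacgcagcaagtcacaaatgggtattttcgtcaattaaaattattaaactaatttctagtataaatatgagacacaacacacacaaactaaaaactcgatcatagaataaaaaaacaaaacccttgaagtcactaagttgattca
ZAT7: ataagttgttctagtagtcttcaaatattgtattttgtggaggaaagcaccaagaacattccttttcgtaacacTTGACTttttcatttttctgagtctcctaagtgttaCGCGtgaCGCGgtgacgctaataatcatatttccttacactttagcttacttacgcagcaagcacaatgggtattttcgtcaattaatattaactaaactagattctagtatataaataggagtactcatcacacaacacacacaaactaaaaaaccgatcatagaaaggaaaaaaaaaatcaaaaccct
ZAT5: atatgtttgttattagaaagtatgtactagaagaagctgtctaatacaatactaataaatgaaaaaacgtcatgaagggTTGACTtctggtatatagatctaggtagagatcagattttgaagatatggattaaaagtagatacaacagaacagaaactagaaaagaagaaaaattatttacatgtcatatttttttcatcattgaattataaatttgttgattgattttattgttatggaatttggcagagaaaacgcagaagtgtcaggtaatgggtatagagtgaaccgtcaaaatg

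CGCG was found in ZAT7, ZAT8 and ZAT12, 3 of 10 members, and in 13.0% of the 27443 promoters of protein-coding genes. It begins at -140 and -133 in ZAT7, at -145 and -126 in ZAT8 and at -44 in ZAT12, counted from the transcript start, and 2.36% of all promoters held at least 2 matches. The promoters of ZAT7 and ZAT8 share much of their sequence, with 236 of 300 aligned bases identical, so that their matches are not independent. The longer CGCGTT, the rapid stress response element, was found in no member and in 3.40% of all promoters. TTGACC was found in ZAT10, ZAT11 and AZF2 (14.2% of all promoters) and TTGACT in ZAT5, ZAT6, ZAT7 and AZF1 (21.8%). The G-box was found in ZAT6, ZAT10 and AZF2, each time 10 to 22 bases after the transcript start, and in 7.68% of all promoters. Its last 5 bases are also those of the ABRE core (ACGTG), which was found in these genes and ZAT12, 4 of 10 against 26.7%. The GCC box (GCCGCC) was found in ZAT6 and ZAT10 (2.57% of all promoters). A match describes these letters and is not evidence of binding.

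**Figure D4:**
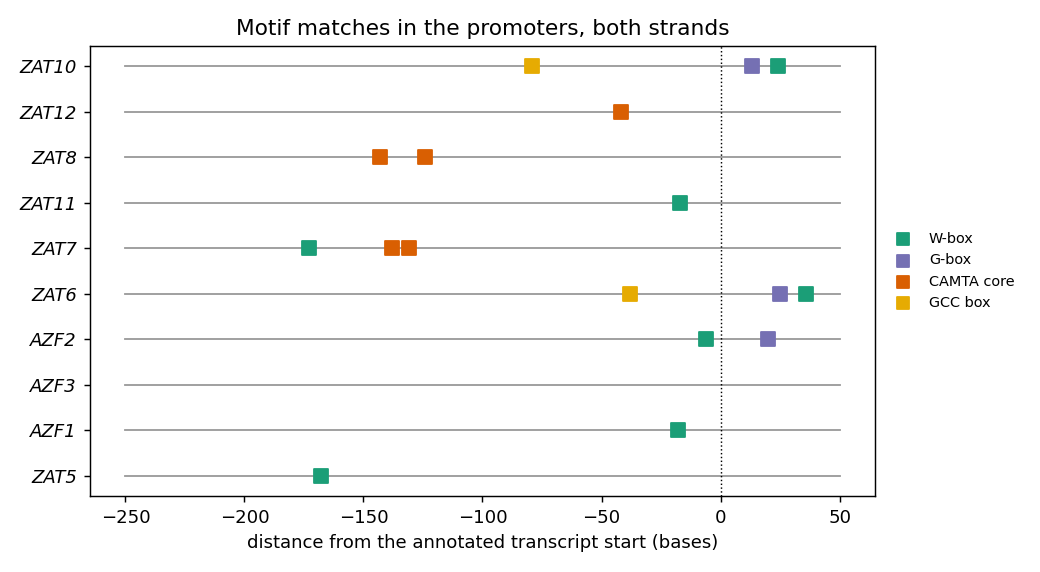
Positions of motif matches in the promoters of the 10 members, in bases from the annotated transcript start, on both strands. The CAMTA core occurs in ZAT7, ZAT8 and ZAT12, the G-box lies after the start in ZAT10, ZAT6 and AZF2, and AZF3 has no match of the 4 kinds of motif plotted. ABRE cores are not plotted.

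Other genes of this protein family were mostly low in these roots. Of 14 related zinc finger genes listed for comparison, 12 were in the table and 4 were tested. Of these, 1 rose and 1 fell, beside 21.3% higher and 38.5% lower among all tested genes. AT3G53600 was at 1.01, 1.25 and 0.42 FPKM in the control and at 5.31, 7.29 and 5.88 after Al, a rise of 1.94 ± 0.18 (SE) in log2 units (adjusted p = 2.12e-05, limma). Its control replicate 3 was below an FPKM of 1, so that it needed the Al samples to pass the filter. AT3G49930 was at 4.42, 3.93 and 3.78 FPKM and at 1.71, 2.15 and 1.32 after Al and fell by 0.90 (standard error 0.13, limma adjusted p = 0.000325). AT5G03510 and AT2G28710 had -0.13 and -0.083 and did not pass the test. The median of the 4 tested genes was -0.11.

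Of 8 co-repressor genes whose products EAR motifs recruit, 5 fell and 1 rose, beside 38.5% lower and 21.3% higher among all tested genes, and 3 fell under median-ratio scaling or the GC correction. Their changes were small, with a median of -0.19 against -0.13 for all tested genes. TPR1 fell by 0.51, from 33.5 ± 1.41 to 23.3 ± 0.247 FPKM (SD, n = 3 each), HDA19, a histone deacetylase, fell by 0.37 and TPR2 by 0.37, with limma adjusted p values of 0.000130, 0.000613 and 0.000865. TPR3, a member of the TOPLESS family, rose by 0.32 (limma adjusted p = 0.00171). TPL itself, at 86.1 ± 5.44 FPKM in the control and 75.8 ± 1.16 after Al (SD, n = 3 each), fell by 0.18 and lost its call under 9 of the 15 alternatives, among them leaving out control replicate 1 or 3 or any Al replicate (limma adjusted p = 0.0355, range 0.00818 to 0.645). TPR4 lost it under median-ratio scaling and the GC correction. HDA6, a histone deacetylase, had -0.12 and passed the test only under TPM scaling, at -0.19 (limma adjusted p = 0.0407).

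Among 8 stress signalling genes listed for comparison, 7 kinases and a heat shock factor, 6 rose and none fell, with a median of 0.83. Of all tested genes, 21.3% were called higher and 38.5% lower. MPK3, a stress-activated kinase, was at 57.76, 66.83 and 68.46 FPKM in the control and at 270.41, 230.83 and 201.59 after Al. It rose by 1.84 ± 0.11 (SE) in log2 units (adjusted p = 1.23e-06, limma). MKK9 and MKK4, kinases of such cascades, rose by 1.59 and 1.36, and HSFA4A, a heat shock factor of oxidative stress signalling, by 1.12. MPK6, which phosphorylates ZAT6, had a log2 fold change of -0.062 (95% interval -0.21 to 0.082), and MPK4 one of 0.053 (95% interval -0.11 to 0.22), neither of which passed the test. Under median-ratio scaling MPK4 was called higher, at 0.19 (limma adjusted p = 0.0320), and MPK6 changed sign. Under TPM scaling MPK4 changed sign.

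The genes of the cold regulon did not move alike. Of its 8 genes, 5 were tested, 3 rose and 1 fell, beside 21.3% higher and 38.5% lower among all tested genes. CBF2, a cold-response factor that is lowered when ZAT12 is overexpressed, was at 0.19, 0.10 and 0.05 FPKM in the control and at 7.85, 3.95 and 3.73 after Al, and rose by 2.41 ± 0.22 (SE) in log2 units (adjusted p = 1.93e-05, limma). KIN1, a cold-induced gene, rose by 1.88 (limma adjusted p = 0.000102). CBF2 and KIN1 passed the filter through the Al samples only and so had to differ. Of the 50-base stretches of CBF2 3.95%, and of those of KIN1 1.28%, occur in another gene. ICE1, an activator of CBF3, fell by 0.88 (limma adjusted p = 0.000264), and COR47, a dehydrin, rose by 0.56 (limma adjusted p = 0.00443). RD29A passed the test without Al replicate 3, at 0.68, and not with all samples, at 0.39.

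In peroxide defence and metal chelation, 5 of 7 genes were tested, 3 rose and none fell, beside 21.3% higher and 38.5% lower among all tested genes. APX1, the cytosolic ascorbate peroxidase whose induction under oxidative stress requires ZAT12, was at 298.94, 290.59 and 266.56 FPKM in the control and at 530.64, 549.62 and 526.93 after Al, and rose by 0.91 (standard error 0.071, limma adjusted p = 7.80e-06). PCS1, phytochelatin synthase, rose by 1.24 (limma adjusted p = 7.82e-06). GSH1, which takes part in the synthesis of glutathione, the precursor of phytochelatins, rose by 0.42 (limma adjusted p = 0.000333). GSH2, glutathione synthetase, had 0.14 and passed the test only under median-ratio scaling, at 0.28 (limma adjusted p = 0.00663). FSD1, an iron superoxide dismutase, had -0.16 and passed the test only without Al replicate 3, at -0.26, and under quantile normalization, at -0.28. Of the 4 Al response genes, all rose, beside 21.3% higher among all tested genes. However, ALMT1 was at 0.47, 0.73 and 0.50 FPKM in the control and at 13.07, 15.70 and 17.43 after Al. It passed the filter through the Al samples only and so had to differ. The other 3 were above 1 FPKM in every sample. ALMT1, a malate channel, rose by 3.38, the citrate transporter gene AT1G51340 by 1.38, ALS3, an ABC transporter subunit, by 0.48 and STOP1, the zinc finger regulator of ALMT1, by 0.31 (limma adjusted p = 5.17e-08, 9.94e-07, 0.00296 and 0.00368).

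**Figure D5:**
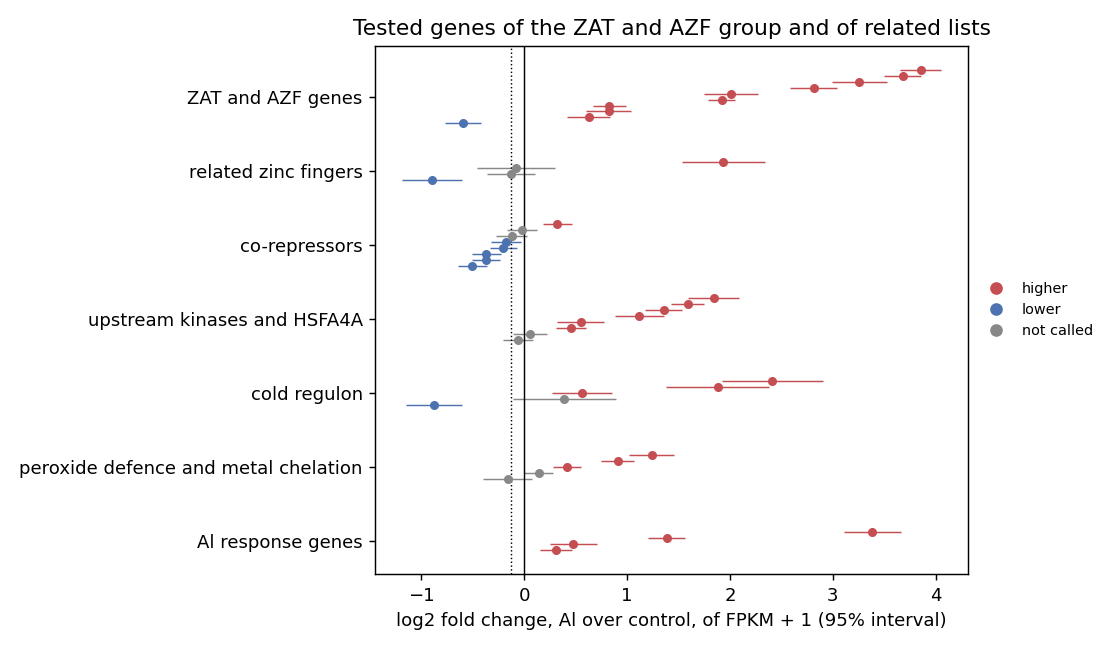
Log2 fold change with 95% interval of each tested member and of the tested genes of 6 related lists, Al over control, in red for genes called higher, blue for lower and grey for not called. The dotted line is the median of all tested genes (-0.13), and the ZAT and AZF genes reach from -0.59 to 3.85.

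The genes outside the group whose 6-sample profile lay nearest to the mean profile of the members, by Euclidean distance of log2(FPKM + 1) values after subtraction of each gene's control mean, were AT5G66070 (distance 0.14), AT5G40540 (0.15), ABCA7 (0.18), AIR12 (0.18) and GH3.1 (0.18). The table describes the first as a RING/U-box protein and the second as a protein kinase. ABCA7 is an ABC transporter gene, AIR12 an auxin-induced gene and GH3.1 an auxin-responsive gene of the GH3 family. AT5G66070 was at 22.9 ± 1.79 FPKM in the control and 87.2 ± 1.51 after Al (SD, n = 3 each). Of the members themselves, ZAT6 lay nearest to their mean, at 0.026, and ZAT5 farthest, at 4.36.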

How the data were processed

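Roots of 7-day-old WT seedlings were profiled by RNA-seq in 3 Al and 3 control samples, and groups and replicate numbers were taken from the labels. The authors deposited FPKM values per gene and sample, rounded to 2 decimals. The aligner, counting tool and annotation are not given in the sources used here. The authors' columns of log2 ratio, P value and Q value were not used, nor were 6 columns that hold the same FPKM values a second time. Gene starts and ends equalled those of TAIR10.1 for 23857 of 24174 genes found in both, including the 10 members.

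FPKM values are not counts. Limma (3.58.1, R 4.3.3) was run on log2(FPKM + 1) values with its trend option. Genes entered when 3 or more samples reached an FPKM of 1. On this scale the change of weakly expressed genes comes out too small. The depth of each sample was inferred from the step size of low FPKM values in genes with 1 transcript, and 86.7% to 89.5% of these values then fell within 0.15 of a whole fragment, with a read offset of 38 bases. Proteins were aligned with Biopython 1.88, and exact tests were run with scipy 1.17.1 in Python 3.11.15.

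The members and the lists were chosen with earlier results of these data known. All members are named. Of each other list at most 4 genes with the largest absolute change are named, together with all Al response genes, genes whose call changed with a setting, MPK6, MPK4 and AT3G46070, which were chosen after their values were seen, and the 5 genes nearest in profile. Lists are described by counts and medians without a set test. Motifs were searched on both strands. The alternatives were the replicate number as a block, 3 scalings, a fit without trend, a pseudocount of 0.1, no filter and the omission of each sample. A GC correction (loess, span 0.3) and an FPKM of at least 1 in every sample were added after seeing the data.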

Additional observations from a re-analysis of the deposited data

How the results depend on the processing

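All 148 values of the 10 members under 15 alternatives kept their direction and their side of the threshold (limma adjusted p at most 0.00455), and 9 members stayed higher and 1 lower. Those of ZAT7 and ZAT8 say little about stability, since both genes passed the filter only through the Al samples and so had to differ. ZAT7 and ZAT8 could not be tested with an FPKM of at least 1 in every sample, which left 7 members higher and 1 lower. When single samples were omitted, ZAT10 ranged from 3.79 to 3.92, AZF1 from 0.54 to 0.68 and ZAT5 from -0.66 to -0.54. With a pseudocount of 0.1, ZAT8 moved to 6.24 and ZAT7 to 4.71. With the replicate number as a block, 9 members were higher and 1 lower, and 3648 genes were higher and 6319 lower against 3933 and 7106 without it. Same-numbered samples did not deviate together (correlations -0.25, -0.037 and -0.22, and 0 of 6 samples correlated best with its own number). With 3 samples per group this cannot exclude a pairing, and the labels state none. Of the called genes over the whole table, the split of higher and lower was 5356 and 5036 with median-ratio scaling, 3432 and 8174 with TPM scaling and 4179 and 6817 with quantile normalization.

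Among the other lists, no filter gave 3 related zinc fingers higher and 2 lower, and an FPKM of at least 1 in every sample gave 0 of them higher and 1 gene of the cold regulon, since fewer genes were tested. Co-repressors called lower were 3 under median-ratio scaling and 3 under the GC correction. In peroxide defence and metal chelation, 1 gene, FSD1, was lower under quantile normalization, and the count ranged from 0 to 1 with each sample left out. Signs turned under median-ratio scaling for AT2G28710 (0.046), SAP18 (0.12), HDA6 (0.014) and MPK6 (0.081), under TPM scaling for MPK4 (-0.012), under quantile normalization for AT2G28710 (0.0056), and with a sample left out for AT2G28710 (-0.24 to 0.083) and SAP18 (-0.055 to 0.015). Without these changes none of these genes passed the test, but MPK4 passed it under median-ratio scaling, HDA6 under TPM scaling (-0.19, limma adjusted p = 0.0407) and GSH2 under median-ratio scaling. The turns with median-ratio and TPM scaling go with their common shift of all genes, and for the rest the cause was not tested. Depth limits ZAT7 and ZAT8 in the control, where 3 fragments would be 0.143 and 0.184 FPKM in control replicate 1.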
